A study of Drosophila melanogaster with 8 samples.

Results

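The sarcomere genes of the muscle sheath were followed in RNA sequencing libraries of adult Drosophila melanogaster ovaries, as 33 genes chosen by symbol out of the 14094 genes in each count table. They cover 8 roles: thick filaments, muscle actins, the tropomyosin and troponin regulators, troponin C paralogs, giant proteins, Z-disc proteins, calponin-type proteins and the transcription factor Mef2. The study targeted stwl, which encodes the chromatin-associated protein Stonewall, with RNA interference in the germline. There were 4 groups of 2 libraries. The nosGAL4 libraries labelled knockdown had the genotype nosGAL4;stwl RNAi/TM6 and their controls nosGAL4;MKRS/TM6. The bamGAL4 libraries labelled knockdown had the genotype bamGAL4>stwl RNAi/TM6 and their controls bamGAL4, with no balancer listed. All ovaries were dissected on days 1 to 3 after eclosion. Both drivers are germline drivers, so the hairpin was directed to germ cells. The genes described here are known from muscle, a somatic tissue, but cells other than muscle also use Tm1, Chd64, Actn and Mef2. The labels do not say how many animals were pooled or whether the libraries of a group came from separate crosses, so p-values measure only the spread between these libraries, which may be technical.

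Total counts ran from 7473851 to 12174984 per library. The targeted gene was not lower in the libraries labelled knockdown. With nosGAL4, stwl was at 61.1 and 27.7 CPM (counts scaled by library size and TMM factor) in libraries labelled knockdown, against 23.1 and 16.9 CPM in the controls. With bamGAL4 it was at 23.2 and 29.6 CPM in libraries labelled knockdown, against 18.2 and 21.0 CPM in the controls. edgeR called stwl higher with nosGAL4 (log2 fold change 1.15, SE 0.37, adjusted p = 0.0203) and made no call with bamGAL4 (0.43, SE 0.36, adjusted p = 0.313). Counts per gene do not separate the stwl transcript from the hairpin, so they do not check the label, and the libraries are named by it throughout. The libraries of a group differed beyond sampling noise (chi-square divided by its degrees of freedom, 12.39 to 133.1).

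Each Drosophila ovariole is wrapped in a muscular sheath, and the whole ovary in a peritoneal sheath, whose contractions move eggs towards the oviduct. A sarcomere, the contractile unit of striated muscle, slides myosin thick filaments along actin thin filaments that are anchored at Z-discs. Calcium bound to troponin C shifts tropomyosin and frees actin for myosin. Flies use different genes for the same part in different muscles: Act88F and TpnC4 are best known from the indirect flight muscles, and Act57B, Act87E, TpnC73F and TpnC47D from larval, tubular and visceral muscles.

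The sarcomere genes were far higher in the libraries labelled knockdown with both drivers. Of the 33 genes, 29 passed the filter on low counts, and 26 of these also passed it on the 4 control libraries alone. All 26 rose with nosGAL4, with a median log2 fold change of 5.96, and all 26 rose with bamGAL4, with a median of 6.15 (n = 2 per group, edgeR quasi-likelihood test). The median change over all 8957 genes tested was 0.11 with nosGAL4 and −0.06 with bamGAL4. Of all genes, 59.2% were called with nosGAL4, 33.5% higher and 25.7% lower, and 68.1% with bamGAL4, 35% higher and 33.1% lower. With each driver, both libraries labelled knockdown lay above both controls for all 26. Of all genes, 42.1% lay wholly higher and 37.7% wholly lower with nosGAL4, and 43.4% and 43.8% with bamGAL4. The largest Benjamini-Hochberg adjusted p of edgeR's test among the 26 was 0.000336 with nosGAL4 and 4.91e-05 with bamGAL4. In whole ovaries, more muscle cells and more RNA per muscle cell, or fewer other cells and less of their RNA, cannot be told apart.

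**Figure D1:**
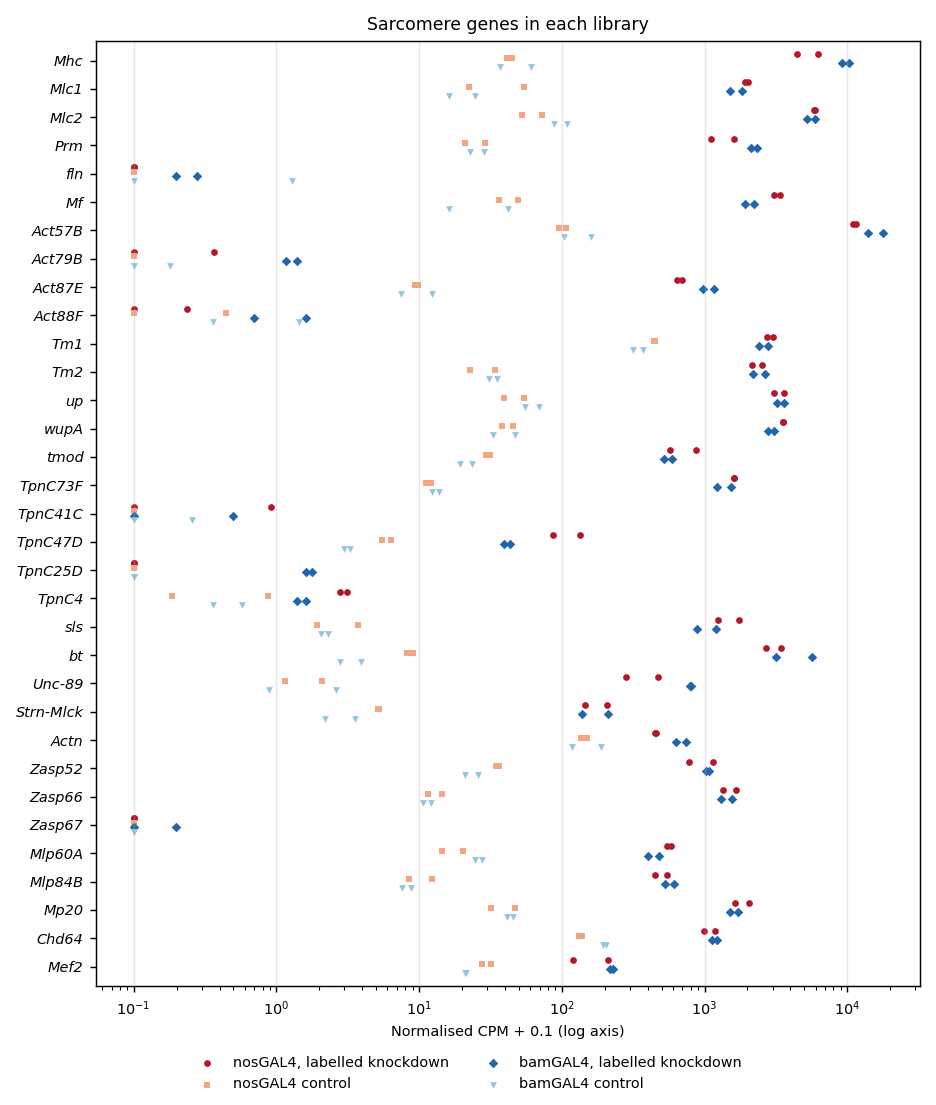
Normalised CPM plus 0.1 on a log axis for each of the 33 sarcomere genes, with 1 point per library and 4 groups of 2 libraries. For most genes the libraries labelled knockdown lie far to the right of the controls, while fln, Act79B, Act88F, TpnC41C, TpnC25D, TpnC4 and Zasp67 stay near the left edge; Act57B reaches 17792 CPM.

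Summed counts of the 33 genes took 4.60% and 5.34% of the nosGAL4 libraries labelled knockdown and 0.159% and 0.162% of the nosGAL4 controls. They took 6.35% and 5.61% of the bamGAL4 libraries labelled knockdown and 0.134% and 0.158% of the bamGAL4 controls. The mean share was thus 31.0-fold higher with nosGAL4 and 40.9-fold higher with bamGAL4. Exact binomial 95% intervals of single libraries were narrow, for example 6.33% to 6.36% for the first bamGAL4 library labelled knockdown and 0.131% to 0.137% for the first bamGAL4 control, and cover counting error only.

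**Figure D2:**
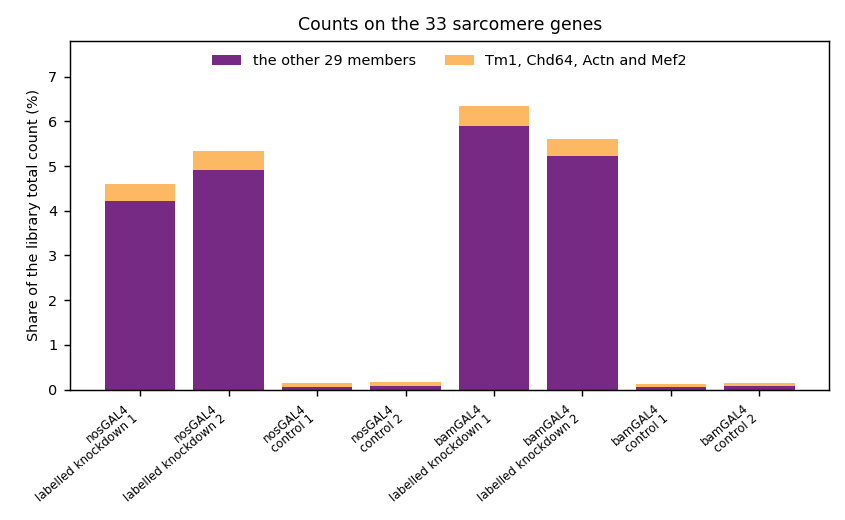
Share of each library's total count (percent) on the 33 sarcomere genes, 1 bar per library, with Tm1, Chd64, Actn and Mef2 stacked on the other 29. The libraries labelled knockdown reach 4.60% to 6.35% and the controls 0.134% to 0.162%.

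Among the thick filament genes, Mhc (FBgn0264695, dm6 2L:16766566-16788766) encodes the muscle myosin heavy chain. Mhc stood at 4464 and 6275 CPM in the nosGAL4 libraries labelled knockdown and at 41.5 and 44.5 CPM in the nosGAL4 controls. It stood at 10308 and 9253 CPM in the bamGAL4 libraries labelled knockdown and at 36.8 and 60.9 CPM in the bamGAL4 controls. Mhc thus rose by a log2 fold change of 6.96 (SE 0.38, edgeR adjusted p = 3.48e-07) with nosGAL4 and of 7.64 (SE 0.39, adjusted p = 2.49e-07) with bamGAL4. Mlc2, the regulatory light chain of muscle myosin, was at 5850 and 5931 CPM in the nosGAL4 libraries labelled knockdown and at 52.9 and 72.2 CPM in the controls. With bamGAL4 the same gene was at 5983 and 5212 CPM in libraries labelled knockdown, against 87.8 and 108 CPM in the controls. Mlc1 encodes the essential light chain. It had log2 changes of 5.68 (SE 0.45) with nosGAL4 and 6.36 (SE 0.47) with bamGAL4. Its nosGAL4 controls were uneven, at 22.4 and 53.9 CPM. The nosGAL4 change was 5.185 without the first of them and 6.45 without the second. Prm, the gene of paramyosin, a rod protein in the core of invertebrate thick filaments, rose by 5.77 (SE 0.32) with nosGAL4 and 6.43 (SE 0.33) with bamGAL4. Mf encodes myofilin, another thick filament protein. It rose by 6.23 (SE 0.47) with nosGAL4 and 6.16 (SE 0.47) with bamGAL4, where the change was 7.0 without the first bamGAL4 control and 5.62 without the second. The remaining thick filament gene, fln, encodes flightin, which is known from flight muscle, and was not tested for want of counts. It had no count in any nosGAL4 library, 2 and 1 counts in the bamGAL4 libraries labelled knockdown and 0 and 15 in the bamGAL4 controls.

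Act57B (FBgn0000044, 2R:20944021-20946431), a muscle actin of larval and visceral type, had the highest level per length of all 33 genes in both sets of libraries labelled knockdown. It stood at 11014 and 11609 CPM in the nosGAL4 libraries labelled knockdown and at 95 and 106 CPM in the nosGAL4 controls. It reached 17792 and 13992 CPM in the bamGAL4 libraries labelled knockdown and 104 and 161 CPM in the bamGAL4 controls. The Act57B values of each labelled group lay far above both control values, with log2 changes of 6.81 (SE 0.35, edgeR adjusted p = 3.27e-07) with nosGAL4 and 6.91 (SE 0.35, adjusted p = 2.49e-07) with bamGAL4. Per kilobase of merged exon, Act57B averaged 6561 CPM in the nosGAL4 libraries labelled knockdown, where Act87E averaged 336. The order was the same in the nosGAL4 controls, where Act57B averaged 58.4 and Act87E 4.76 CPM per kilobase. Act87E (3R:13425983-13428375), a second actin of this type, was at 641 and 696 CPM in the nosGAL4 libraries labelled knockdown and at 9.69 and 9.26 CPM in the controls. With bamGAL4 it was at 1171 and 975 CPM in libraries labelled knockdown, against 7.34 and 12.2 CPM in the controls. Act87E rose by log2 changes of 6.14 (SE 0.32) with nosGAL4 and 6.76 (SE 0.33) with bamGAL4. Some deposited counts of both genes were not whole numbers, so reads of near-identical actins may have been divided between them.

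Flight-type actin stayed near the detection floor in every library. Act88F (3R:15439969-15442177), the actin of the indirect flight muscles, had 1 and 0 counts in the nosGAL4 libraries labelled knockdown and 0 and 4 in the nosGAL4 controls. It had 17 and 6 counts in the bamGAL4 libraries labelled knockdown and 2 and 17 in the bamGAL4 controls, groups that overlap. The ratio of summed Act88F counts, corrected for library size, was 0.368 (95% exact counting interval 0.00747 to 3.72) with nosGAL4 and 1.15 (0.599 to 2.23) with bamGAL4. edgeR called no change (adjusted p = 0.617 with nosGAL4 and 0.826 with bamGAL4), and changes of a few-fold were not detectable at this depth. Act79B, an actin known from leg and jump muscles, had 0 and 2 counts in the nosGAL4 libraries labelled knockdown and none in the nosGAL4 controls. It had 12 and 13 counts in the bamGAL4 libraries labelled knockdown and 0 and 1 in the bamGAL4 controls, a ratio of 23.7 (95% exact counting interval 3.89 to 974). This gene did not pass the filter and has no test across libraries.

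As a share of the counts on all 4 muscle actins, Act88F took 0.00116% (1 of 86256 counts) and 0% (0 of 92775, which allows up to 0.00323%) in the nosGAL4 libraries labelled knockdown. It took 0% (0 of 1091, which allows up to 0.275%) and 0.299% (4 of 1339) in the nosGAL4 controls. With bamGAL4 the share was 0.00794% and 0.00398% in the libraries labelled knockdown and 0.234% and 0.772% in the controls. Over both drivers the mean difference was −0.323 percentage points, and a two-sided exact permutation test of 4 against 4 libraries gave p = 0.143 (0.167 with labels permuted within each driver). It was −0.174 without the second bamGAL4 control, the library that also held 15 fln counts. Act88F counts themselves were at most 17 in any library, while the summed actin counts were 86256 to 214010 in the libraries labelled knockdown and 854 to 2201 in the controls. Act87E took 5.50% and 5.66% of the actin counts in the nosGAL4 libraries labelled knockdown and 9.26% and 7.99% in the nosGAL4 controls. Its share was 6.18% and 6.51% in the bamGAL4 libraries labelled knockdown and 6.56% and 7.0% in the bamGAL4 controls. The mean difference was −1.74 percentage points (two-sided exact permutation test of 4 against 4 libraries, p = 0.0286). This comparison was chosen after its values were seen, so its p supports nothing.

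**Figure D3:**
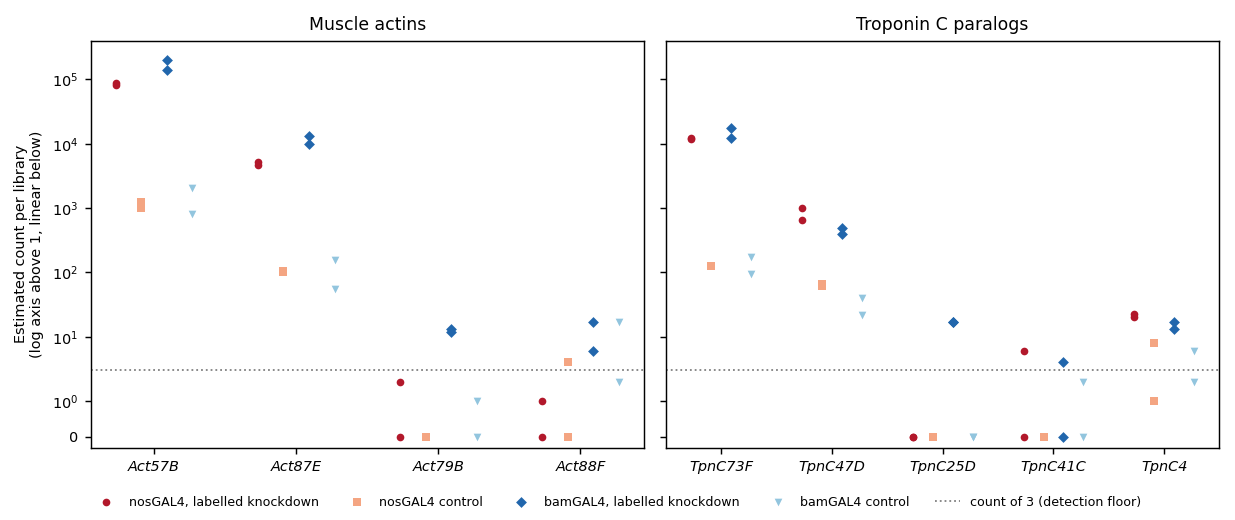
Estimated counts per library (log axis above 1, linear below) of 4 muscle actins and 5 troponin C genes, with a dotted line at the floor of 3 counts. Act57B, Act87E, TpnC73F and TpnC47D are higher in the libraries labelled knockdown, while Act88F is at most 17 in every library and its groups overlap.

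Among the troponin C genes, which encode the calcium sensor of the thin filament, TpnC73F (3L:17046063-17048390) carried most counts. It was at 1602 and 1607 CPM in the nosGAL4 libraries labelled knockdown and at 12.1 and 11 CPM in the nosGAL4 controls. With bamGAL4 it was at 1541 and 1225 CPM in libraries labelled knockdown, against 12.2 and 13.6 CPM in the controls. TpnC73F thus rose by log2 changes of 7.12 (SE 0.28, edgeR adjusted p = 3.27e-07) and 6.74 (SE 0.28, adjusted p = 1.99e-07), with nosGAL4 and bamGAL4 in that order. TpnC47D, its larval and tubular muscle paralog, rose less in both. It was at 87.3 and 135 CPM in the nosGAL4 libraries labelled knockdown and at 6.24 and 5.37 CPM in the controls, a log2 change of 4.26 (SE 0.30). With bamGAL4 it was at 43.4 and 39.4 CPM in libraries labelled knockdown, against 2.88 and 3.17 CPM in the controls, a log2 change of 3.76 (SE 0.31). TpnC47D took 5.16% and 7.74% of the troponin C counts in the nosGAL4 libraries labelled knockdown and 32.7% and 32.6% in the nosGAL4 controls. The corresponding shares with bamGAL4 were 2.74% and 3.10% in the libraries labelled knockdown and 18.8% and 18.2% in the controls. The mean difference was −20.9 percentage points (the same exact permutation test, p = 0.0286), in a comparison also chosen after its values were seen, so that its p supports nothing.

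The other troponin C genes had few counts. TpnC4, known from flight muscle, had 20 and 23 counts in the nosGAL4 libraries labelled knockdown and 8 and 1 in the nosGAL4 controls. Its log2 change was 2.74 (SE 1.05, edgeR adjusted p = 0.0451), a call lost under 7 of 11 alternatives, among them without the second nosGAL4 control (1.89, adjusted p = 0.167). It was 4.86 (adjusted p = 0.0188) without the first nosGAL4 control. In the bamGAL4 libraries labelled knockdown TpnC4 had 17 and 13 counts, against 2 and 6 in the bamGAL4 controls (1.85, SE 1.06, adjusted p = 0.145). TpnC25D had 17 counts in each bamGAL4 library labelled knockdown and none in any other library, at least 10.8-fold higher against a floor of 3 counts over the 2 controls. Its edgeR adjusted p was 0.0174 with bamGAL4, and between 0.0604 and 0.0933 without any 1 of the 4 bamGAL4 libraries; DESeq2 gave 0.0791. TpnC41C, also known from flight muscle, had 6 and 0 counts in the nosGAL4 libraries labelled knockdown and 0 in both controls, at least 2.94-fold higher on the same floor. It had 0 and 4 counts in the bamGAL4 libraries labelled knockdown and 0 and 2 in the bamGAL4 controls. TpnC4, TpnC25D and Act88F passed the filter only with the libraries labelled knockdown.

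Together TpnC4 and TpnC41C took 0.208% and 0.175% of the troponin C counts in the nosGAL4 libraries labelled knockdown, against 4.02% (8 of 199) and 0.526% (1 of 190) in the nosGAL4 controls. They took 0.0949% and 0.133% in the bamGAL4 libraries labelled knockdown, against 1.71% (2 of 117) and 3.64% (8 of 220) in the bamGAL4 controls. The flight-type share was lower in each of the 4 libraries labelled knockdown than in each of the 4 controls. The flight-type counts themselves were not lower there, with 26 and 23 counts in the nosGAL4 libraries labelled knockdown and 8 and 1 in the controls, and 17 in each bamGAL4 library labelled knockdown against 2 and 8 in the bamGAL4 controls. Summed troponin C counts ran from 12526 to 17912 in the libraries labelled knockdown and from 117 to 220 in the controls. The lower share thus reflects the rise of these sums, most of it TpnC73F. The full separation of the shares rests on 1 count in the second nosGAL4 control. The exact binomial 95% interval of that control, 0.0133% to 2.9%, holds the shares of all 4 libraries labelled knockdown. Without that count the separation would be lost. The mean difference in share was −2.32 percentage points (two-sided exact permutation test over all 8 libraries, p = 0.0286, the smallest that 4 against 4 allows, and 0.0357 adjusted over 5 shares). That test exchanges labels across the drivers. Its p depends on the 1 count named above, so it supports nothing about the flight-type genes. With labels permuted within each driver, the exact p was 0.0556, the smallest that design allows, so it cannot pass 0.05. With 1 library left out the smallest possible p is 0.0571.

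The remaining thin filament regulators rose together. The troponin T gene up was at 3091 and 3605 CPM in the nosGAL4 libraries labelled knockdown and at 39.5 and 54.1 CPM in the controls. With bamGAL4 up was at 3618 and 3223 CPM in libraries labelled knockdown, against 54.9 and 69.4 CPM in the controls. The log2 changes of up were 6.16 (SE 0.31) and 5.78 (SE 0.31), with nosGAL4 first. The troponin I gene wupA rose by 6.41 (SE 0.31) with nosGAL4 and 6.21 (SE 0.31) with bamGAL4, and Tm2, a muscle tropomyosin, by 6.37 (SE 0.32) and 6.20 (SE 0.32) in that order. Tropomodulin, encoded by tmod, caps the pointed ends of thin filaments, and rose by 4.57 (SE 0.28) with nosGAL4 and 4.70 (SE 0.29) with bamGAL4. Tm1, a tropomyosin gene with muscle and nonmuscle isoforms, differed from these in its control level. It was at 2723 and 3014 CPM in the nosGAL4 libraries labelled knockdown and at 441 and 450 CPM in the controls, a log2 change of 2.69 (SE 0.23). With bamGAL4 Tm1 was at 2805 and 2399 CPM in libraries labelled knockdown, against 369 and 315 CPM in the controls, a log2 change of 2.93 (SE 0.24).

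The giant and kinase-type proteins included the genes with the steepest changes among the 26. The titin-like gene sls (3L:2039681-2115611), which encodes elastic proteins that tie thick filaments to the Z-disc, had 1253 and 1752 CPM in the nosGAL4 libraries labelled knockdown and 3.65 and 1.82 CPM in the controls. With bamGAL4 sls had 885 and 1195 CPM in libraries labelled knockdown, against 1.96 and 2.22 CPM in the controls. Its log2 changes were 9.11 (SE 0.44) with nosGAL4 and 8.94 (SE 0.44) with bamGAL4. Projectin, encoded by bt (4:724400-776474), is a titin-like protein with a kinase domain. It was at 2707 and 3409 CPM in the nosGAL4 libraries labelled knockdown and at 8.15 and 8.92 CPM in the controls, a log2 change of 8.48 (SE 0.42). With bamGAL4 bt was at 3177 and 5689 CPM in libraries labelled knockdown, against 3.80 and 2.69 CPM in the controls, a log2 change of 10.43 (SE 0.46). The obscurin homologue Unc-89, an M-line protein, rose by 7.92 (SE 0.52) with nosGAL4 and 8.80 (SE 0.54) with bamGAL4. Its bamGAL4 controls stood at 0.786 and 2.53 CPM, and the change was 8.30 without the first of them and 9.97 without the second. Strn-Mlck, a kinase of the same protein family, rose by 5.11 (SE 0.35) with nosGAL4 and 5.92 (SE 0.37) with bamGAL4. These genes have long transcripts. Per kilobase of exon, sls averaged 25.5 CPM in the nosGAL4 libraries labelled knockdown and bt 109 CPM, far below Act57B.

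Z-disc genes also rose, with a wider range. Zasp66, a PDZ-domain scaffold of the Z-disc, was at 1345 and 1662 CPM in the nosGAL4 libraries labelled knockdown and at 11.5 and 14.3 CPM in the controls, a log2 change of 6.86 (SE 0.30). With bamGAL4 Zasp66 was at 1556 and 1294 CPM in libraries labelled knockdown, against 10.5 and 12 CPM in the controls, a log2 change of 6.98 (SE 0.30). Zasp52, a scaffold of the same family, changed by 4.75 (SE 0.28) with nosGAL4 and 5.49 (SE 0.29) with bamGAL4. The muscle LIM proteins Mlp84B and Mlp60A changed by 5.59 (SE 0.29) and 5.02 (SE 0.27) with nosGAL4, and by 6.14 (SE 0.30) and 4.09 (SE 0.26) with bamGAL4. Zasp67, another paralog, had 1 count in 1 bamGAL4 library labelled knockdown and none elsewhere. Actn (X:2023822-2042311), the actin cross-linker alpha-actinin, had the smallest rise of the 26. It was at 450 and 458 CPM in the nosGAL4 libraries labelled knockdown and at 137 and 150 CPM in the controls, a log2 change of 1.66 (SE 0.26, edgeR adjusted p = 0.000336). With bamGAL4 Actn was at 736 and 627 CPM in libraries labelled knockdown, against 118 and 189 CPM in the controls (2.15, SE 0.26, adjusted p = 4.91e-05). In the reference annotation, Actn shares 5.03% of its exon bases with usp on the same strand and 15.7% with east on the opposite strand, so some of its reads may belong to those genes.

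Calponin-type proteins bind actin filaments. Mp20, the muscle member, rose by 5.54 (SE 0.30) with nosGAL4 and 5.22 (SE 0.30) with bamGAL4. Chd64, which is also made outside muscle, was at 991 and 1188 CPM in the nosGAL4 libraries labelled knockdown and at 131 and 138 CPM in the controls (3.02, SE 0.23). With bamGAL4 it was at 1223 and 1120 CPM in libraries labelled knockdown, against 205 and 195 CPM in the controls (2.55, SE 0.22). Mef2, the transcription factor that activates many muscle structural genes, was at 120 and 210 CPM in the nosGAL4 libraries labelled knockdown and at 31.8 and 27.6 CPM in the controls (2.47, SE 0.28). With bamGAL4 Mef2 was at 217 and 229 CPM in libraries labelled knockdown, against 21.0 and 21.1 CPM in the controls (3.41, SE 0.30).

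**Figure D4:**
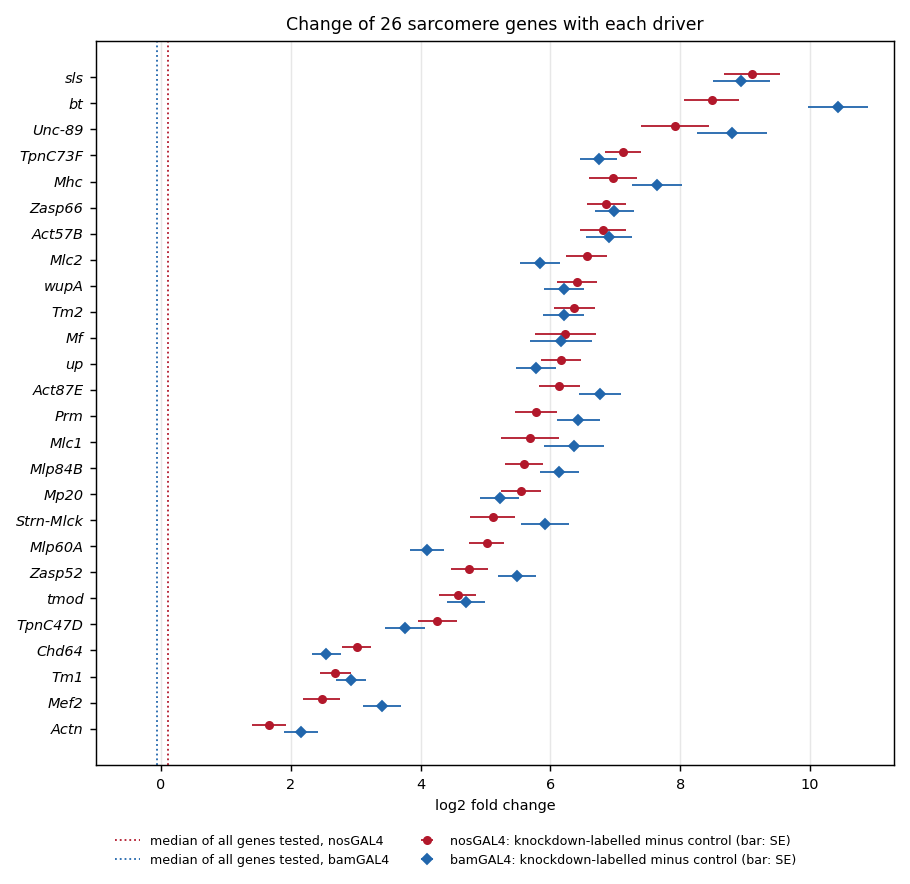
Log2 fold change, labelled knockdown minus control, of the 26 sarcomere genes that also passed the filter on the controls, with bars of 1 SE, for nosGAL4 and bamGAL4. Dotted lines mark the median of all genes tested, 0.11 and −0.06; sls (9.11) heads the nosGAL4 order and Actn (1.66) ends it.

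Tm1, Chd64, Actn and Mef2, which cells other than muscle also use, thus changed least of the 26 with both drivers. The 4 genes held 8.06% to 8.15% of the counts on all 33 genes in the nosGAL4 libraries labelled knockdown and 52.5% to 57.5% in the nosGAL4 controls. They held 7.05% to 7.27% in the bamGAL4 libraries labelled knockdown and 50.0% to 54.4% in the bamGAL4 controls. Act57B, Mhc and Mlc2 together held 39.4% to 40.6% in the nosGAL4 libraries labelled knockdown and 14.7% to 15.3% in the nosGAL4 controls. The same genes held 45.8% to 49.8% in the bamGAL4 libraries labelled knockdown and 17.5% to 22.9% in the bamGAL4 controls. Without Tm1, Chd64, Actn and Mef2, the other 22 genes had median log2 changes of 6.19 with nosGAL4 and 6.21 with bamGAL4, and TpnC47D had the lowest, at 4.26 and 3.76.

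**Figure D5:**
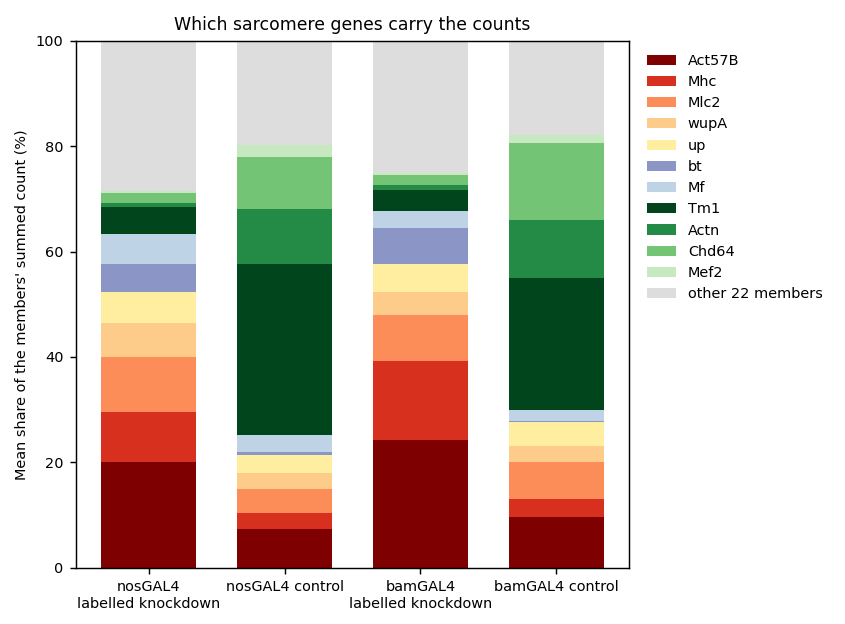
Mean share (percent) of the counts on all 33 sarcomere genes held by 11 of them and by the other 22 together, in 4 groups of 2 libraries. Tm1 takes 5.08% in the nosGAL4 libraries labelled knockdown and 32.5% in the nosGAL4 controls, while Act57B takes 20.1% and 7.33% of the same groups.

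The size of the change was compared between drivers as the nosGAL4 effect minus the bamGAL4 effect. None of the 26 genes was called in edgeR's test of this difference, in which 2.68% of all genes were called, 1.52% higher and 1.16% lower. There were 3 genes with an unadjusted p under 0.05, and DESeq2 called 1. The median difference was −0.12, against 0.16 over all genes. It ran from −1.95 for bt (SE 0.47, edgeR adjusted p = 0.0532) to 0.93 for Mlp60A (SE 0.33, adjusted p = 0.128). The third gene, Mef2, had a difference of −0.93 (SE 0.38, adjusted p = 0.173). Under the other settings bt was called with library totals (−2.15, adjusted p = 0.0409), without the filter on low counts (−1.95, adjusted p = 0.0138) and in DESeq2 (−2.10, adjusted p = 0.00119). Without the second nosGAL4 library labelled knockdown, bt (−2.13, adjusted p = 0.0161) and Mef2 (−1.39, adjusted p = 0.0153) were called. Scaling to ribosomal protein genes called 16 of the 26 lower, but it also moved the median of all genes to −1.24.

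Levels in the libraries labelled knockdown, compared between drivers without a test, fell in no common order. The bamGAL4 libraries lay above the nosGAL4 libraries for Mhc, Prm, Act57B, Act87E, Unc-89, Actn and Mef2. The nosGAL4 libraries lay above the bamGAL4 libraries for Mlc1, Mf, wupA, TpnC73F, TpnC47D, sls and Mlp60A, and the values of the other 12 genes overlapped. The share of all genes that lie apart in this way was not computed. These orders are therefore not evidence of a difference between the drivers. Between the controls, edgeR called 1 of the 26 lower with bamGAL4 than with nosGAL4 and 0 higher, where 6.8% of all genes were called, 3.11% lower and 3.68% higher. That gene was bt, at 3.80 and 2.69 CPM in the bamGAL4 controls and at 8.15 and 8.92 CPM in the nosGAL4 controls (log2 difference −1.41, adjusted p = 0.044). The call was lost without either nosGAL4 control, without the second bamGAL4 control and with the replicate number as a block (adjusted p = 0.0575). The bt values of the libraries labelled knockdown overlapped between the drivers.

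Other genes that muscle uses were mostly higher in the libraries labelled knockdown. The counts of each list are over members that passed the filter on the controls alone, and the lists were chosen with earlier results known. Of the integrin attachment genes, which tie sarcomeres to the cell membrane, 8 of 8 rose with each driver; for this and the lists that follow, 33.5% of all genes were called higher with nosGAL4 and 35% with bamGAL4. The 8 integrin attachment genes had median log2 changes of 2.38 with nosGAL4 and 2.89 with bamGAL4. Among them, if had log2 changes of 4.01 (SE 0.35) with nosGAL4 and 5.05 (SE 0.36) with bamGAL4. Changes of mew were 3.70 (SE 0.27) and 4.23 (SE 0.28) in that order, and both encode integrin alpha subunits. Ilk (0.85 and 1.30) and parvin (1.11 and 0.62), named after their values were seen, changed least. Of the excitation and calcium genes, 6 of 6 rose with nosGAL4 and 5 of 6 with bamGAL4. Their median log2 changes were 2.60 and 3.60 in that order. The calcium channel subunit Ca-beta rose by 5.74 (SE 0.38) with nosGAL4 and 6.38 (SE 0.40) with bamGAL4. Of the membrane and nuclear anchor genes, 4 of 5 rose with nosGAL4 and 5 of 5 with bamGAL4. Their median log2 changes were 3.12 and 3.60 in that order. Msp300, a nesprin that anchors muscle nuclei, rose by 7.50 (SE 0.45) with nosGAL4 and 7.90 (SE 0.46) with bamGAL4. Dys, the fly dystrophin, rose by 3.12 (SE 0.27) with nosGAL4 and 4.22 (SE 0.29) with bamGAL4. Of the muscle energy genes, 2 of 5 rose with nosGAL4 and 3 of 5 with bamGAL4, near the share of all genes called higher with nosGAL4, and their median log2 change was −0.02 with nosGAL4 and 0.98 with bamGAL4. One that rose was Argk, arginine kinase, which buffers ATP in insect muscle, by 3.15 (SE 0.25) with nosGAL4 and 2.35 (SE 0.24) with bamGAL4.

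Of 16 listed muscle identity factors, 7 passed the filter on low counts. The others, bap, nau, vg, Hand, twi, tin, lmd, slou and lbe, had no count in any library. Of the 2 that passed the filter on the controls, 1 rose with nosGAL4 and both rose with bamGAL4. The RNA-binding factor how rose with both, by 3.21 (SE 0.29) with nosGAL4 and 4.02 (SE 0.30) with bamGAL4. The stripe gene sr, a tendon cell factor, was at 21.1 and 30.9 CPM in the nosGAL4 libraries labelled knockdown and at 0 and 0.173 CPM in the controls. With bamGAL4 sr was at 12.7 and 12 CPM in libraries labelled knockdown, against 0.131 and 0 CPM in the controls. The visceral muscle factor bin had 17 and 10 counts in the nosGAL4 libraries labelled knockdown and none in the controls (edgeR adjusted p = 0.00587). With bamGAL4 it had 33 and 22 counts in the libraries labelled knockdown and 1 and 0 in the controls (adjusted p = 0.00738). Its level was low, at most 2.92 CPM, and like sr it passed the filter only with the libraries labelled knockdown. So did salm, ap and hth, named after their values were seen. In libraries labelled knockdown, salm had 27 and 24 counts with bamGAL4 and 2 and 0 with nosGAL4, and no control had any. Those libraries held 17 and 7 ap counts with nosGAL4 and 71 and 58 with bamGAL4, against at most 3 in any control. Counts of hth, labelled knockdown against control, were 504 and 715 against 0 and 169 (nosGAL4), and 473 and 599 against 2 and 0 (bamGAL4). None of the 33 sarcomere genes is confined to the ovarian sheath, so the counts do not tell sheath muscle from other muscle that may have been dissected with the ovary.

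Markers of other cell types moved as well. Summed germline markers were at 207 to 506 CPM in the nosGAL4 libraries labelled knockdown and 3535 to 3701 CPM in the nosGAL4 controls, and 11 of 12 tested fell. They were at 103 to 142 CPM in the bamGAL4 libraries labelled knockdown and 3273 to 3350 CPM in the bamGAL4 controls, where 11 of 12 also fell. Of all genes, 25.7% were called lower with nosGAL4 and 33.1% with bamGAL4. The exception, grk, named after its values were seen, rose by 1.59 (SE 0.24) with nosGAL4 and 1.94 (SE 0.25) with bamGAL4. Follicle and escort cell markers summed to 1956 to 2442 CPM in the nosGAL4 libraries labelled knockdown, against 205 to 214 CPM in the nosGAL4 controls, and 6 of 8 rose. Their sums were 1732 to 1866 CPM in the bamGAL4 libraries labelled knockdown, against 147 to 182 CPM in the bamGAL4 controls, where 6 of 8 rose and 1 fell. Fas3 was the largest part, at 1005 and 1444 CPM in the nosGAL4 libraries labelled knockdown and 919 and 978 CPM in the bamGAL4 ones. The marker tj was called with neither driver (edgeR adjusted p = 0.138 with nosGAL4 and 0.859 with bamGAL4). The one that fell was slbo (−3.14 with bamGAL4). Both tj and slbo were named after their values were seen. Haemocyte markers summed to 7406 to 8375 CPM in the nosGAL4 libraries labelled knockdown, against 623 to 652 CPM in the nosGAL4 controls, and 5 of 5 rose. With bamGAL4 they summed to 11888 to 13167 CPM in the libraries labelled knockdown and to 408 to 575 CPM in the controls, and again 5 of 5 rose. These 5, named after their values were seen, were srp, Pxn, crq, Col4a1 and vkg. Hml, eater, NimC1 and He passed the filter only with the libraries labelled knockdown, and are not in that count. NimC1 and He were at 0 in all controls.

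Sums of fat body, neuronal and tracheal markers were higher too. Fat body markers summed to 1035 to 2244 CPM in the nosGAL4 libraries labelled knockdown and 252 to 254 CPM in the controls, and with bamGAL4 to 7209 to 8986 CPM and 229 to 360 CPM in the same order. Of 7 fat body markers, 7 rose with nosGAL4 and 6 with bamGAL4. Neuronal markers summed to 180 to 254 CPM in the nosGAL4 libraries labelled knockdown and 6.23 to 7.19 CPM in the controls. With bamGAL4 they summed to 268 to 324 CPM in the libraries labelled knockdown and 2.06 to 3.41 CPM in the controls. VGlut, ChAT and para were at 0 in all controls. VGlut and ChAT also had 0 counts in both nosGAL4 libraries labelled knockdown. In the bamGAL4 libraries labelled knockdown VGlut had 2 and 1 counts and ChAT 0 and 4. The marker brp had 1 and 2 counts in the nosGAL4 libraries labelled knockdown and 19 and 5 in their controls. Its bamGAL4 counts were 9 and 5 in the libraries labelled knockdown and 1 and 3 in the controls. It did not pass the filter and was not tested. Syt1 was called with neither driver (edgeR adjusted p = 0.183 with nosGAL4 and 0.464 with bamGAL4). Both brp and Syt1 were named after their values were seen. Most of the neuronal sum in the libraries labelled knockdown came from elav and cpx. Only elav passed the filter on the controls alone, and it was called higher with both drivers. Tracheal markers summed to 164 to 217 CPM in the nosGAL4 libraries labelled knockdown and 2.51 to 5.08 CPM in the controls, with dysf at 0 in all controls. With bamGAL4 they summed to 243 to 255 CPM in the libraries labelled knockdown and 1.18 to 1.74 CPM in the controls. None of the tracheal markers passed the filter on the controls alone. Those tested passed it only with the libraries labelled knockdown, so no count of rises is given for them. The part of these cell types in the change of the sarcomere genes was not tested.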

How the data were processed

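Ovary RNA was extracted with Trizol and sequenced from a Netflex Rapid Directional library kit, per the labels' protocols. The authors deposited estimated counts per gene, unscaled, in 1 column per library. Per the submitters' processing notes, STAR 2.7.5b, Salmon 1.2.1, Trim Galore 0.6.6 and FastQC 0.11.8 were used with dm6; their roles are not stated. No source used here states the annotation, strand setting or filters, so overlapping, antisense and near-identical genes may share reads. Whole numbers made up 92.51% to 95.05% of each column.

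Counts were rounded. Genes were kept by filterByExpr (minimum count 10, minimum total 15), which left 8957. One edgeR 4.0.16 quasi-likelihood model (limma 3.58.1, R 4.3.3, TMM factors, robust, prior count 0.125, 4 residual degrees of freedom) was fitted to the 4 groups. Its contrasts were labelled knockdown against control for each driver, the nosGAL4 effect minus the bamGAL4 effect, and the bamGAL4 against the nosGAL4 controls. Benjamini-Hochberg adjustment ran over the full set of tested genes (threshold 0.05). CPM values use the TMM factors, and 3 counts in 1 library come to 0.238 to 0.405 CPM. Standard errors (SE) come from the F statistic. Where a group had no counts, the fold given is a lower limit computed with 3 counts for that group. Where it had 1 to 4 counts or the gene was untested, a ratio of summed counts stands with its exact 95% interval, which covers counting error alone because there were no molecular identifiers. Shares were compared by exact permutation over libraries (scipy 1.17.1), adjusted over the 5 shares tested: all 33 genes, flight-type actin, flight-type troponin C, Act87E and TpnC47D. The model was tested on simulated data.

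Symbols, positions and exon lengths come from BDGP6.54 (same coordinates as dm6); 14048 of 14094 identifiers matched, and all 33 genes did. Besides the 33 genes and stwl, up to 3 genes of each other list that passed the test with nosGAL4 could be named, by smallest adjusted p. The 33 genes and all lists were chosen with earlier results of these data known. Alternatives were RLE size factors, library totals, ribosomal protein scaling (82 genes), no filter, a stricter filter (5 CPM in 2 libraries), DESeq2 1.42.0, the replicate number as a block, the 4 libraries of a contrast alone, and leaving out each library.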

Additional observations from a re-analysis of the deposited data

Results flagged for a closer look

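Of the listed marker genes, 3 of 12 germline and 2 of 8 fat body markers tested differed between the drivers. The test was edgeR's, of the nosGAL4 effect minus the bamGAL4 effect (Benjamini-Hochberg adjusted). Of all genes, 2.68% were called in it, 1.52% higher and 1.16% lower. The germline marker exu fell with both. It was at 7.30 and 6.63 CPM in the nosGAL4 libraries labelled knockdown and at 323 and 364 CPM in the nosGAL4 controls (−5.62, SE 0.25). It was at 4.43 and 4.37 CPM in the bamGAL4 libraries labelled knockdown and at 633 and 683 CPM in the bamGAL4 controls (−7.22, SE 0.27), and the difference was 1.60 (adjusted p = 0.0318). The fat body marker Apoltp rose with both, by 3.71 (SE 0.36) with nosGAL4 and 8.48 (SE 0.45) with bamGAL4, and the difference was −4.77 (adjusted p = 0.00404). It was at 29.6 and 22.2 CPM in the nosGAL4 libraries labelled knockdown and at 2.01 and 1.90 CPM in the nosGAL4 controls. It was at 161 and 278 CPM in the bamGAL4 libraries labelled knockdown and at 0.786 and 0.475 CPM in the bamGAL4 controls. The germline marker otu fell by 4.76 (SE 0.33) with nosGAL4 and by 6.72 (SE 0.37) with bamGAL4, a difference of 1.96 (adjusted p = 0.0452). The germline marker bcd had 342 and 84 counts in the nosGAL4 libraries labelled knockdown and 986 and 1112 in the nosGAL4 controls. It had 0 and 1 counts in the bamGAL4 libraries labelled knockdown and 568 and 1061 in the bamGAL4 controls; the fitted difference of 8.64 (adjusted p = 0.0218) depends on the prior count. The fat body marker apolpp rose by 4.65 (SE 0.62) with nosGAL4 and 9.28 (SE 0.76) with bamGAL4, a difference of −4.63 (adjusted p = 0.0326). The names otu, bcd and apolpp were chosen after their values were seen. None of the 29 sarcomere genes tested met this criterion. Groups of 2 libraries are too small for a test of single outlying libraries.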

How the results depend on the processing

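The 26 sarcomere genes kept their direction and their call in 312 of 312 values with nosGAL4 and 312 of 312 with bamGAL4, over 12 alternatives per driver. Their median ran from 5.46 (ribosomal protein scaling) to 6.26 with nosGAL4 and from 5.95 (library totals) to 7.03 (ribosomal protein scaling) with bamGAL4. Ribosomal protein scaling moved the median of all genes to −0.41 with nosGAL4 and 0.81 with bamGAL4, and library totals to −0.28 and −0.27. It called 2192 genes higher and 3264 lower with nosGAL4 (4141 and 1182 with bamGAL4), and library totals 2449 and 3246 (2841 and 3385 with bamGAL4).

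In the difference between drivers, the genes called lower numbered 1 with library totals, 16 with ribosomal protein scaling, 1 without the filter and 1 in DESeq2, and 0 to 2 with a library left out. Between controls they numbered 12 with ribosomal protein scaling, 2 in DESeq2 and 0 with the replicate block, and 0 to 1 with a library left out. Of all 8957 genes, ribosomal protein scaling called 3359 lower in the difference between drivers and 2948 lower between controls. It moved the medians of all genes to −1.24 and −0.81 in that order. DESeq2 called 609 and 666 of all genes lower in the same order. Signs turned for Act88F, whose uncalled change ran from −3.96 to 2.62 with nosGAL4 and from −0.47 to 1.96 with bamGAL4 as 1 library was left out. They also turned under ribosomal protein scaling for the Mlp60A difference (−0.46) and the Chd64 control contrast (−0.38). Over the 26 genes, signs turned in 33 of 390 values of the difference between drivers and in 36 of 312 values of the control contrast. The cause was not tested.

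Replicate numbers did not pair the libraries (correlations of deviations −0.0554 to 0.0346). With the replicate block, 26 of the 29 sarcomere genes tested rose with nosGAL4 and 27 with bamGAL4. Leaving out a library gave differences of 5.03 to 5.61 percentage points in the sarcomere share, −0.432 to −0.174 for flight-type actin, −2.97 to −1.81 for flight-type troponin C, −2.12 to −1.22 for Act87E and −23.4 to −18.5 for TpnC47D. The share difference was 2.92 without Act57B, Mhc and Mlc2 and 4.99 without Tm1, Chd64, Actn and Mef2. With labels permuted within each driver, an alternative added after seeing the data, the exact p was 0.0556 for the sarcomere share (5.32), flight-type troponin C (−2.32), Act87E (−1.74) and TpnC47D (−20.9), the smallest that 36 arrangements allow. Flight-type actin gave −0.352 per exon length, and TpnC4 alone −2.11. Genes under about 20 counts in a group limit what the flight-type comparisons can show.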

Other observations

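Actin and myosin genes of cells other than muscle were also higher, by less. Of 10 listed nonmuscle actomyosin genes, 9 rose with nosGAL4 and 6 with bamGAL4, with median log2 changes of 1.69 and 0.80 in that order. Of all genes, 33.5% were called higher with nosGAL4 and 35% with bamGAL4. Act42A, a cytoplasmic actin, was at 2601 and 3124 CPM in the nosGAL4 libraries labelled knockdown and at 249 and 226 CPM in the controls, a change of 3.59 (SE 0.26). With bamGAL4 its change was 3.57 (SE 0.26). The nonmuscle myosin heavy chain zip rose by 3.39 (SE 0.31) with nosGAL4 and 3.69 (SE 0.31) with bamGAL4, and its regulatory light chain sqh by 1.92 (SE 0.20) and 1.22 (SE 0.20) in that order.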
